A study of Mus musculus with 12 samples.

Results

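R-spondin 2 (RSPO2) was added to bone morphogenetic protein 2 (BMP2) in cultures of a mouse pre-osteoblast line, and the transcriptome with both proteins was set against that with BMP2 alone. The members are the libraries that the labels put in these arms: 3 with BMP2+RSPO2 and 3 with BMP2, which makes 6 of the 12 libraries in the series. All genes at 1 FPKM (fragments per kilobase of transcript, scaled to the mapped fragments of a library) or more in at least 3 of the 12 libraries were compared, which left 11548 genes. Every culture was MC3T3-E1 subclone 14, labelled wild type, a clonal line from mouse calvaria that lays down mineralized matrix in medium with ascorbic acid and β-glycerophosphate. The BMP2+RSPO2 arm received recombinant human/mouse BMP2 at 100 ng/ml together with recombinant mouse RSPO2 at 200 ng/ml. The BMP2 arm received BMP2 at 100 ng/ml. The other arms received RSPO2 at 200 ng/ml without BMP2, or vehicle (Control), with 3 libraries each. All arms, Control included, stood in the osteogenic medium for 5 days, so no arm shows cells outside it. The cultures of an arm were independent biological replicates of 1 clonal line, and differences between lines or animals were not measured.

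RSPO2 is a secreted protein that binds LGR receptors and withdraws the ubiquitin ligases ZNRF3 and RNF43 from the cell surface. Frizzled and LRP receptors then persist, and a cell becomes more sensitive to the Wnt ligands around it. BMP2 binds a receptor kinase pair that phosphorylates SMAD proteins, which together with RUNX2 and SP7 drive osteoblast genes. In bone, Wnt and BMP signals both act on the step from mesenchymal precursor to matrix-forming osteoblast.

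The pre-osteoblast markers fitted the label: across the 12 libraries Col1a1, the main collagen gene of bone, lay between 3935 and 12887 FPKM, and Runx2, the master regulator of osteoblasts, between 21.2 and 48 FPKM. Of the markers of other cell types, Ptprc, Adgre1, Itgam, Cd3e, Epcam, Sox10, Ckm and Myod1 were listed at 0 in every library. Others were present: Cd68 had 0.59, 4 and 4 FPKM with BMP2+RSPO2 and 1.01, 1.74 and 1.98 FPKM with BMP2. Cdh5 had 3.89, 0 and 0.66 FPKM with BMP2+RSPO2 and 0.36, 0.06 and 0.49 FPKM with BMP2. Krt18 reached 2.09 FPKM and Pecam1 1.38 FPKM, both in BMP2+RSPO2 replicate 1, while Krt8 was at 0 there. The summed level of the whole marker list was 4.63 to 8.95 FPKM with BMP2+RSPO2 and 2.3 to 3.49 FPKM with BMP2, and its part in the results was not tested. BMP2+RSPO2 replicate 1 stood apart from its arm. RNA polymerase III transcripts made up 19.2% of its summed FPKM, against 0.181% to 2.31% in the other 11 libraries, and 520 tested genes were listed at 0 there but not in replicates 2 and 3. The first replicate of every arm also had higher cell cycle genes. Lists and many single genes are therefore also given from replicates 2 and 3 only. Because these are bulk cultures, fewer cells of a kind and less RNA per cell cannot be told apart.

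With RSPO2 added to BMP2, more genes fell than rose in the deposited scaling, and contractile and interstitial matrix genes were among the falls. With limma and Benjamini-Hochberg adjustment over all genes, 506 genes were called at an adjusted p under 0.05, which is 4.38% of those tested. Of these, 74 were higher with BMP2+RSPO2 (0.641%) and 432 were lower (3.74%). All 506 had values that do not overlap between the arms, as did 33.6% of all tested genes (4.97% higher and 28.6% lower). The split follows the scaling of the deposited values in part: the median gene stood 0.19 lower on the log2 scale with BMP2+RSPO2, and under median-of-ratios scaling 129 genes were higher and 129 lower (1.12% each, together 2.23%). That scaling moved the median of all genes to −0.03 and kept 73 of the 74 rises and 129 of the 432 falls. Replicates 2 and 3 only gave 620 rises (5.37%) and 1892 falls (16.4%), together 21.8% of genes, among them 68 of the 74 rises and 407 of the 432 falls, and there the median of all genes was −0.11. With median-of-ratios scaling of these libraries 1041 genes rose (9.01%) and 1138 fell (9.85%). Without BMP2+RSPO2 replicate 1 alone, 172 rose (1.49%) and 537 fell (4.65%). A block on the replicate number gave 205 rises (1.78%) and 1505 falls, 14.8% of genes in all, and all 506 calls were among them. Differences of single genes are given below as deposited, and 65 of the rises and 109 of the falls were called with the block, from replicates 2 and 3 under either scaling, and with median-of-ratios or quantile scaling of all libraries. The count fell to 65 without BMP2 replicate 2, to 60 without BMP2 replicate 3 and to 157 without BMP2+RSPO2 replicate 2. Libraries of the arms not compared share the estimate of the spread: 216 to 234 genes were called without Control replicates 2 or 3 or RSPO2 replicate 2, and 222 without BMP2 replicate 1. Only the 6 libraries of the comparison gave 35 calls, 6 higher and 29 lower. In that fit 45 of the 69 genes named by rule lost their call.

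**Figure D1:**
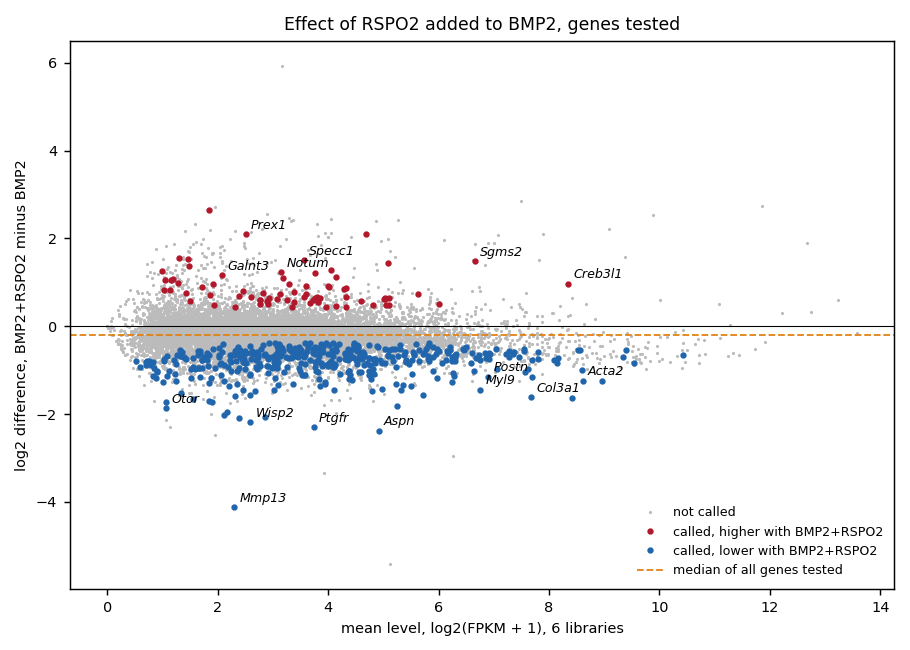
Each point is 1 of the 11548 genes tested; the x axis is the mean log2(FPKM + 1) over the 6 libraries and the y axis is the log2 difference, BMP2+RSPO2 minus BMP2. Red points are the 74 called rises, blue points the 432 called falls, and the dashed line is the median of all genes, at −0.19; Mmp13 lies lowest among the called genes.

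Of 4 genes that mark the comparison, Mmp13, Ptgfr and Myl9 fell with RSPO2 and Prex1 rose. Mmp13 encodes the interstitial collagenase of bone and cartilage. It stood at 0.28, 0.13 and 0.13 FPKM in the BMP2+RSPO2 libraries, against 4.29, 38.1 and 40.3 FPKM in the BMP2 libraries. The arms did not overlap, although BMP2 replicate 1 was far below its fellows. The log2 difference was −4.12 (SE 0.63, adjusted p = 0.0106), or −3.93 relative to the median gene, and −5.15 from replicates 2 and 3 only. Without BMP2 replicates 2 or 3 the adjusted p reached 0.0518. Mmp13 was also near the bottom without BMP2, at 0.17, 0.18 and 0.13 FPKM with RSPO2 alone and 0.96, 2.43 and 2.26 FPKM in Control, a difference of −1.27 that was not called (adjusted p = 1).

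Ptgfr, the gene of the prostaglandin F receptor, had 7.08, 4.08 and 4.29 FPKM with BMP2+RSPO2 and 23.7, 30 and 33.3 FPKM with BMP2. The lowest BMP2 library was thus above the highest BMP2+RSPO2 library. The difference was −2.30 (SE 0.19, adjusted p = 0.000609), or −2.12 relative to the median gene, and −2.65 from replicates 2 and 3 only. It stayed called whichever single library was left out. The receptor also fell where BMP2 was absent, to 7.27 ± 0.675 FPKM with RSPO2 against 21.8 ± 2.60 FPKM in Control (SD, n = 3 each; log2 difference −1.46, limma adjusted p = 0.0338).

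Myl9, which encodes a regulatory light chain of smooth muscle and non-muscle myosin, had 71.9, 62.2 and 60.6 FPKM with BMP2+RSPO2 and 184, 167 and 183 FPKM with BMP2. Replicates lay close together in both arms. The difference was −1.44 (SE 0.12, adjusted p = 0.000609), −1.25 relative to the median gene and −1.49 from replicates 2 and 3 only, and the call held whichever library was left out.

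Prex1 encodes an exchange factor that activates the small GTPase RAC. It had 7.55, 13.1 and 12.5 FPKM with BMP2+RSPO2 and 1.91, 1.77 and 1.58 FPKM with BMP2. Every library with both proteins was above every BMP2 library, and replicate 1 was the lowest of its arm. The difference was 2.10 (SE 0.21, adjusted p = 0.00109), 2.29 relative to the median gene and 2.37 from replicates 2 and 3 only, and no single library ended the call. Without BMP2 the gene was low throughout, at 0.27 ± 0.151 FPKM with RSPO2 and 0.783 ± 0.336 FPKM in Control (SD, n = 3 each).

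**Figure D2:**
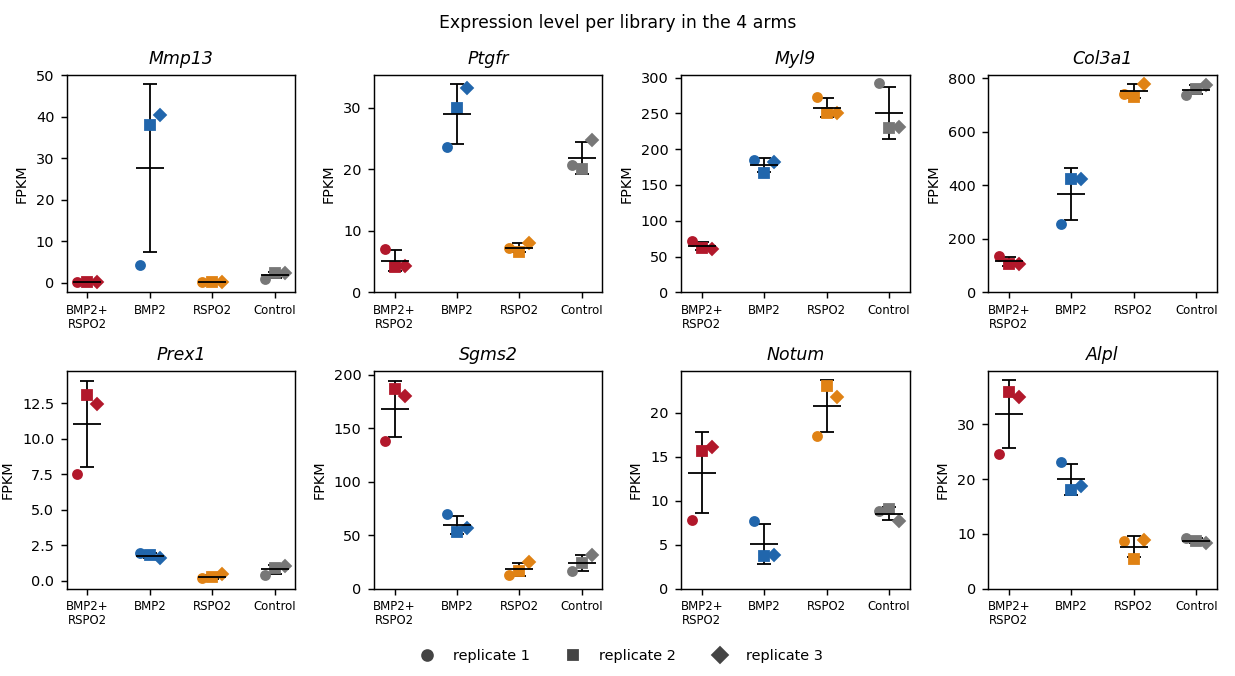
FPKM of 8 genes in each of the 12 libraries, with the arms from left to right as BMP2+RSPO2, BMP2, RSPO2 and Control; symbols mark the replicate number and the bars give the mean ± SD of 3 libraries. Mmp13, Ptgfr, Myl9 and Col3a1 are lower with BMP2+RSPO2 than with BMP2, whereas Prex1, Sgms2 and Notum are higher; the Alpl libraries also do not overlap, but the gene was not called (adjusted p = 0.0799).

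Promoter stretches of 3 of these genes are shown because they hold words that factors of the Wnt, bone and muscle programmes read. They come from RefSeq's annotation of the GRCm38.p6 build and run 5′ to 3′ on the strand of the gene, with the matched words in capitals. The Mmp13 stretch (chr9:7272376-7272505, + strand) holds the RUNX word ACCACA, which starts 118 bases before the start of the gene, and the AP-1 word TGACTCA, which starts 35 bases before it. The Prex1 stretch (chr2:166713913-166713959, − strand) holds the TCF/LEF word TACAAAG, starting 107 bases before the start. The searched Prex1 window also holds the BMP-SMAD word GGCGCC, which lies past the start and outside the stretch shown. The Myl9 stretch (chr2:156775283-156775332, + strand) holds a CArG box, the word of serum response factor, CCTAATAAGG, starting 161 bases before the start. In the window of Ptgfr no word of the search was found. The stretches were chosen because they hold a match, which describes the letters only. Of the windows of tested genes, 10.9% held a TCF/LEF word, 12.1% the RUNX word and 4.74% the AP-1 word. The BMP-SMAD word was in 22.3% of them and a CArG box in 1.27%.
Mmp13: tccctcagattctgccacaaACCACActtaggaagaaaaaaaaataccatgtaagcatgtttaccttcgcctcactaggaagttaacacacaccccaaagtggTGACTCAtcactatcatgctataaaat
Prex1: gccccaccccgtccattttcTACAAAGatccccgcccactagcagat
Myl9: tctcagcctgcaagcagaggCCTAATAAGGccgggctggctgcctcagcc

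In the smooth muscle and contractile programme, 7 of 14 tested genes fell and 0 rose, where 3.74% of all genes fell. Myl9 is among the 7 and, as a marker of the comparison, was known to fall before the list was counted. All 14 had a log2 difference below 0, as did 8225 of the 11548 genes tested. Their median was −0.67, against −0.19 over all genes, and it was −0.51 with median-of-ratios scaling, where only Myl9 and Acta2 fell. Among the 14 were 12 falls from replicates 2 and 3 only, where 16.4% of all genes fell. Acta2, smooth muscle α-actin, had 275, 241 and 244 FPKM with BMP2+RSPO2 and 590, 585 and 623 FPKM with BMP2, so the arms were far apart (log2 difference −1.24, SE 0.13, adjusted p = 0.00143; −1.31 from replicates 2 and 3 only). Tagln (transgelin, an actin-binding protein) had 42.6, 49.4 and 52.1 FPKM with BMP2+RSPO2 and 107, 118 and 125 FPKM with BMP2. Its log2 difference was −1.26 (−1.24 from replicates 2 and 3 only), a call at the edge of the threshold that ended without any library other than Control replicate 1 or RSPO2 replicate 1 (adjusted p up to 0.141). Actg2, enteric smooth muscle γ-actin, differed by −1.01 (adjusted p = 0.0315), and the tropomyosin gene Tpm2 by −0.72 (adjusted p = 0.0277). Cnn2 (calponin 2, −0.54) and Cald1 (caldesmon, −0.47) completed the 7. For Myl9 and Acta2 no single library ended the call. The call of Actg2 ended without Control replicate 2, RSPO2 replicate 2 or any BMP2 replicate (up to 0.111), and that of Tpm2 without BMP2 replicates 2 or 3 or BMP2+RSPO2 replicate 2 (up to 0.104). Cnn2 held only without Control replicate 1, RSPO2 replicates 1 or 3 or BMP2+RSPO2 replicate 1 (otherwise up to 0.111), and Cald1 only without RSPO2 replicate 1 or BMP2+RSPO2 replicate 1 (otherwise up to 0.139).

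CArG boxes were rare in the promoter windows, which run from 250 bases before to 50 after the start. The box was searched on both strands and found in 12 of 363 windows of called falls (3.31%), in 0 of 68 windows of called rises, in 1.27% of the windows of tested genes and in 1.63% of all RefSeq windows. The 12 windows with a match belong to Rsu1, Myl9, Trnp1, Lamtor4, Lmcd1, Aprt, Rab11a, Cnn2, Fermt2, Lima1, Srf and Npm3. A match describes the letters only. Of the contractile list, Myl9 and Cnn2 held one (15.4% of 13 windows). The box was also in 12.5% of 16 windows of tested Wnt target and feedback genes, and in 0 of 23 windows of tested fibrillar and interstitial matrix genes. Srf, the gene of serum response factor itself, had 12.9, 14.2 and 14.7 FPKM with BMP2+RSPO2 and 17.3, 19.1 and 19.1 FPKM with BMP2 (log2 difference −0.38, adjusted p = 0.0474), a call that ended without any 1 of the 12 libraries (up to 0.146) and under median-of-ratios scaling (0.269). Lmcd1, a LIM domain protein of muscle cells, had 15.2, 14 and 17.1 FPKM with BMP2+RSPO2 and 28.6, 36.6 and 33.4 FPKM with BMP2 (−1.04, adjusted p = 0.00237), and no single library ended its call. Srf and Lmcd1 were chosen after their values were seen. The stretches around the boxes of Cnn2 (chr10:79988524-79988573, + strand), Srf (chr17:46556195-46556264, − strand) and Lmcd1 (chr6:112273523-112273572, + strand) are shown for comparison with that of Myl9, with the boxes in capitals.
Cnn2: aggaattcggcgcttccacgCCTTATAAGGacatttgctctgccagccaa
Srf: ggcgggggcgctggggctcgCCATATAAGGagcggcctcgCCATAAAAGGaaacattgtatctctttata
Lmcd1: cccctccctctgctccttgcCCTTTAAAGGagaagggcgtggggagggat

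Interstitial matrix genes also held many falls in the fit over all libraries. Of 27 tested members of the fibrillar and interstitial matrix list, 8 fell and 0 rose, where 3.74% of all genes fell; the median was −0.63, and −0.43 under median-of-ratios scaling, where 4 fell. In replicates 2 and 3 only, 15 fell and 3 rose, where 16.4% of all genes fell and 5.37% rose. Col3a1, the collagen of loose connective tissue, had 136, 106 and 108 FPKM with BMP2+RSPO2 and 255, 423 and 424 FPKM with BMP2. BMP2 replicate 1 was the lowest of its arm and still stood above all libraries with both proteins (log2 difference −1.62, SE 0.19, adjusted p = 0.00237; no single library ended the call). The small leucine-rich proteoglycan gene Aspn (asporin) had 26.3, 9.32 and 7.23 FPKM with BMP2+RSPO2 and 64.3, 66.1 and 73.8 FPKM with BMP2. Ogn (osteoglycin), of the same family, had 38.5, 12.6 and 14.4 FPKM with BMP2+RSPO2 and 73.8, 64.5 and 73.4 FPKM with BMP2. In both, BMP2+RSPO2 replicate 1 was the highest of its arm, and the arms stayed apart. Their differences were −2.38 (adjusted p = 0.00915) and −1.82 (adjusted p = 0.0196), and −2.94 and −2.27 from replicates 2 and 3 only. The call of Aspn ended without BMP2 replicate 3 (0.0518) and that of Ogn without any BMP2 replicate or BMP2+RSPO2 replicate 2 (up to 0.0772). Both genes lie on the strand opposite to the longer gene Cenpp, and since it is not given here whether counting used strand, their reads and those of Cenpp cannot be told apart.

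The remaining falls in that list were the collagens Col12a1 (−1.36) and Col16a1 (−1.10), the matricellular protein Tnc (tenascin C, −1.15), the elastic fibre protein Fbln5 (fibulin 5, −1.01) and the proteoglycan Fmod (fibromodulin, −0.99). Fbln5 had 1.82, 3.22 and 2.87 FPKM with BMP2+RSPO2 and 6.14, 6.31 and 6.21 FPKM with BMP2 (SE 0.16, adjusted p = 0.0129). Under median-of-ratios scaling Fbln5 kept its call, whereas Col12a1 (0.0688), Col16a1 (0.0667), Tnc (0.132) and Fmod (0.0772) lost theirs. Calls also ended without BMP2 replicates 2 or 3 for all 5 (up to 0.0661 for Fbln5), without BMP2+RSPO2 replicate 2 for Col16a1 (up to 0.107) and Fmod (up to 0.0839), and without Control replicate 3 or BMP2+RSPO2 replicates 2 or 3 for Col12a1 (up to 0.105). Tnc was called only without the first replicate of Control, RSPO2 or BMP2 (otherwise up to 0.139). Not every fibrillar gene was lower: Col5a1 (0.15), Col5a2 (0.17), Lox (lysyl oxidase, 0.30) and Thbs1 (thrombospondin 1, 0.43) had differences above 0 and were not called.

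Postn (periostin), a matricellular protein of periosteum counted in the bone matrix list, had 88.9, 76.1 and 73.2 FPKM with BMP2+RSPO2 and 166, 178 and 187 FPKM with BMP2. The arms were well separated (log2 difference −1.15, SE 0.10, adjusted p = 0.000683), and no single library ended the call. Of 8 chondrocyte genes, 2 fell and 0 rose (median −0.62), where 3.74% of all genes fell and 0.641% rose. Matn4 (matrilin 4) had 0.73, 1.27 and 0.99 FPKM with BMP2+RSPO2 and 3.44, 6.93 and 6.56 FPKM with BMP2 (−1.70, adjusted p = 0.00292; no single library ended the call). Matn3 stood lower still, at 0.353 ± 0.125 FPKM with BMP2+RSPO2 and 1.37 ± 0.261 FPKM with BMP2 (SD, n = 3 each; −0.80, limma adjusted p = 0.0379). Matn3 lost its call under median-of-ratios scaling (0.0514), and with a library left out was called only without Control replicate 1, RSPO2 replicates 1 or 3 or BMP2+RSPO2 replicate 1 (otherwise up to 0.112). With replicates 2 and 3 only, 5 of the 8 fell and 2 rose (16.4% and 5.37% of all genes): Col2a1 of hyaline cartilage was among the falls (adjusted p = 0.00378) and Col10a1 of hypertrophic cartilage among the rises (adjusted p = 0.00263).

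**Figure D3:**
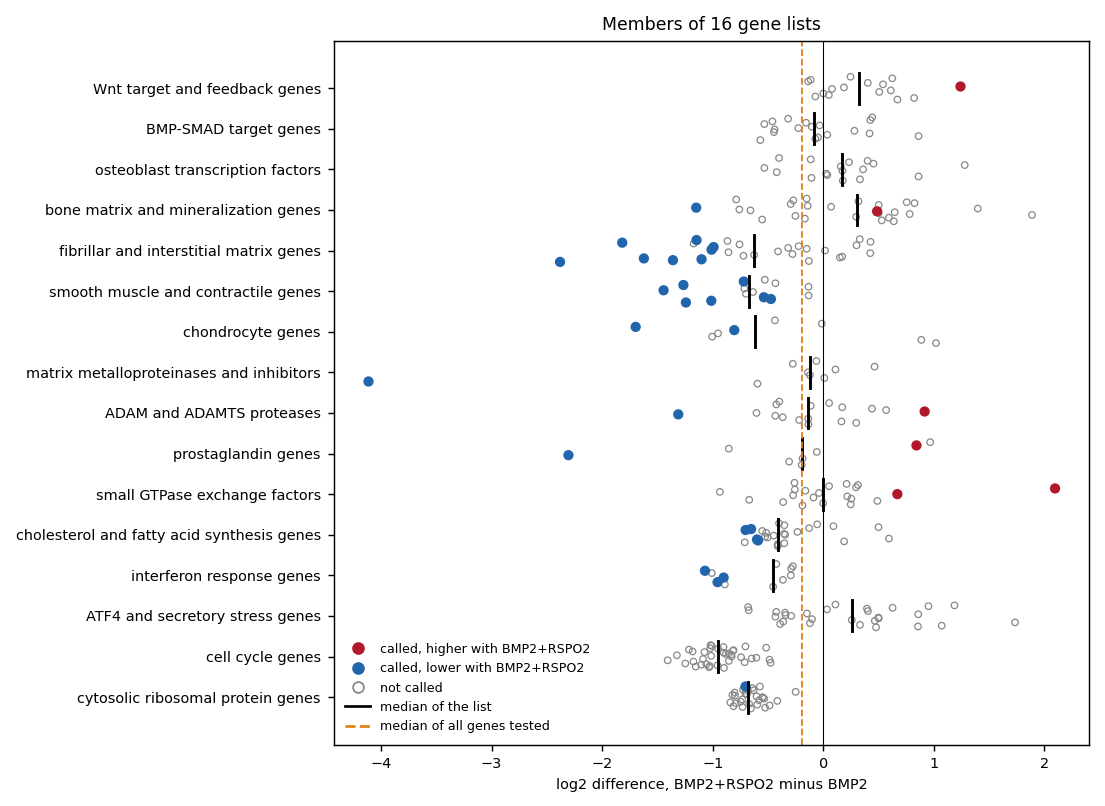
Log2 difference, BMP2+RSPO2 minus BMP2, of every tested member of 16 gene lists; filled points are called genes (red higher, blue lower), open points are not called, the black bar is the median of a list and the dashed line the median of all genes tested, at −0.19. All 14 contractile genes lie left of 0, and the bar of the fibrillar and interstitial matrix genes stands at −0.63, while that of the bone matrix genes stands at 0.31.

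Further large falls came from genes of diverse roles. Cp (ceruloplasmin, a copper-carrying ferroxidase) had 1.28, 1.03 and 0.84 FPKM with BMP2+RSPO2 and 4.93, 6.11 and 6.42 FPKM with BMP2 (log2 difference −1.73, adjusted p = 0.000683). Ptx3 (pentraxin 3, a soluble pattern recognition protein) had 4.36, 2.04 and 1.74 FPKM with BMP2+RSPO2 and 10.6, 15.6 and 16 FPKM with BMP2 (−2.06, adjusted p = 0.00651). Otor (otoraplin, a small secreted protein) had 0, 0.15 and 0.15 FPKM with BMP2+RSPO2 and 3.29, 2.5 and 3.27 FPKM with BMP2 (−1.87, adjusted p = 0.000553). These genes were low in each library with both proteins. No single library ended their calls, nor that of the homeobox gene Sebox (−1.74, adjusted p = 0.000683). Hvcn1 (a voltage-gated proton channel, −2.08), Gstt1 (a glutathione transferase, −1.95) and the noncoding Platr3 (−2.03) were listed at 0 in BMP2+RSPO2 replicate 1, which enlarges their differences; from replicates 2 and 3 only they were −1.63, −1.51 and −1.52. Hvcn1 and Gstt1 lost their calls under median-of-ratios scaling (adjusted p = 0.0765 and 0.0616). Each of the 3 also lost it without any BMP2 replicate (up to 0.127, 0.111 and 0.0888), and Hvcn1 and Platr3 without BMP2+RSPO2 replicate 2. Without Control replicates 2 or 3 or RSPO2 replicate 2 the calls of Hvcn1 and Gstt1 ended too, and that of Hvcn1 without RSPO2 replicate 3.

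The largest rises with a gene name were those of Prex1 and Ddr2, a receptor tyrosine kinase for fibrillar collagen that osteoblasts use. Ddr2 had 62.7, 49.5 and 47 FPKM with BMP2+RSPO2 and 12.9, 10 and 11.8 FPKM with BMP2, so the arms stood far apart. The difference was 2.10 (SE 0.42, adjusted p = 0.0277). Control replicate 2 reached 45.5 FPKM beside 11.2 and 11.9 FPKM in the other Control libraries, a spread that enters the error of the fit. The call of Ddr2 ended without any BMP2 replicate or BMP2+RSPO2 replicate 2 (up to 0.105).

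Sgms2, a sphingomyelin synthase of the plasma membrane, had 138, 187 and 180 FPKM with BMP2+RSPO2 and 69.4, 52.7 and 57.2 FPKM with BMP2. It was the most abundant of the 12 largest rises, and BMP2+RSPO2 replicate 1 was the lowest of its arm (log2 difference 1.48, SE 0.27, adjusted p = 0.0199; lost without BMP2 replicates 2 or 3 or BMP2+RSPO2 replicate 2, up to 0.0821). Specc1, the gene of the coiled-coil protein cytospin B, had 19.3, 21.1 and 16.6 FPKM with BMP2+RSPO2 and 9.67, 4.48 and 4.91 FPKM with BMP2 (1.51, adjusted p = 0.00851). Galnt3, a glycosyltransferase that modifies the phosphate hormone FGF23, had 5, 5.29 and 5.76 FPKM with BMP2+RSPO2 and 2.14, 1.69 and 1.72 FPKM with BMP2 (1.16, adjusted p = 0.00575). Specc1 and Galnt3 did not overlap between the arms, and their calls held with any library left out.

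Col24a1, a fibrillar collagen of bone, had 20.6, 28.4 and 26.4 FPKM with BMP2+RSPO2 and 10.3, 11.2 and 11.5 FPKM with BMP2 (log2 difference 1.11, adjusted p = 0.03). Cd200, a membrane glycoprotein, had 12.8, 25.7 and 23.1 FPKM with BMP2+RSPO2 and 9.17, 7.94 and 6.92 FPKM with BMP2 (1.21, adjusted p = 0.0433). Both genes stood below those levels without BMP2, at up to 5.37 FPKM for Col24a1 and 1.52 FPKM for Cd200. Their calls ended without RSPO2 replicate 2, any BMP2 replicate or BMP2+RSPO2 replicates 2 or 3 (up to 0.104 for Col24a1 and 0.135 for Cd200), and for Cd200 also without Control replicates 2 or 3 or RSPO2 replicate 3.

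The noncoding RNA Neat1, the scaffold of nuclear paraspeckles, had 39.2, 22.2 and 17.4 FPKM with BMP2+RSPO2 and 10.6, 9.42 and 9.06 FPKM with BMP2 (1.27, adjusted p = 0.0374). The linker histone gene Hist1h1c had 83.5, 40.8 and 47.9 FPKM with BMP2+RSPO2 and 24.1, 17.8 and 17.1 FPKM with BMP2 (1.45, adjusted p = 0.0208). In both, BMP2+RSPO2 replicate 1 was the highest library, and from replicates 2 and 3 only the differences were 1.01 and 1.29. That library also held histone transcripts at a median of 40.7 FPKM, against 0.38 to 2.66 FPKM elsewhere, and the part of this in Hist1h1c was not tested. Neat1 lost its call without Control replicates 2 or 3, RSPO2 replicate 2, any BMP2 replicate or BMP2+RSPO2 replicate 2 (up to 0.12), and Hist1h1c without BMP2 replicates 2 or 3 (up to 0.0859). The hairpin loci Mir3100 (1.56, adjusted p = 0.0253) and Mir3074-1 (1.53, adjusted p = 0.0383) and the Wnt antagonist Notum, described below, complete the 12; poly(A)-selected libraries do not measure the mature miRNAs. From replicates 2 and 3 only neither hairpin was called (adjusted p = 0.0503 and 0.0769). They lost their calls without BMP2 replicates 1 or 2 or BMP2+RSPO2 replicate 2 (up to 0.104 and 0.11), and Mir3074-1 also without Control replicate 3, RSPO2 replicates 2 or 3, BMP2 replicate 3 or BMP2+RSPO2 replicate 1.

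Genes of bone matrix and mineralization had a median above 0, but few passed the test over all libraries. Of 26 tested members 1 rose and 1 fell, Lifr and Postn, where 0.641% of all genes rose and 3.74% fell. The median was 0.31, or 0.50 with median-of-ratios scaling and 0.12 with quantile normalization. Replicates 2 and 3 only gave 14 rises and 3 falls, where 5.37% of all genes rose and 16.4% fell. Lifr, a receptor chain for LIF-family cytokines, had 47.5, 37.1 and 34.9 FPKM with BMP2+RSPO2 and 26.4, 28.2 and 29.2 FPKM with BMP2 (log2 difference 0.49, adjusted p = 0.0446), and was called only without BMP2+RSPO2 replicates 1 or 3 (otherwise up to 0.125). Alpl, the alkaline phosphatase that frees phosphate for mineral, had 24.7, 35.9 and 35 FPKM with BMP2+RSPO2 and 23.2, 18 and 18.7 FPKM with BMP2. The arms did not overlap, and the difference of 0.64 (SE 0.19, adjusted p = 0.0799) was called under median-of-ratios scaling (0.041) and from replicates 2 and 3 only (0.91, adjusted p = 0.0163). Ibsp, bone sialoprotein, had 1972, 2885 and 2973 FPKM with BMP2+RSPO2 and 2156, 1605 and 1724 FPKM with BMP2. Replicate 1 ran against replicates 2 and 3 here: the arms overlapped (0.50, adjusted p = 0.25), while replicates 2 and 3 only gave 0.82 (adjusted p = 0.0084).

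Dmp1, a phosphoprotein of osteocytes and mineralizing matrix, showed the widest spread. It had 21.4, 733 and 732 FPKM with BMP2+RSPO2 and 4.25, 233 and 191 FPKM with BMP2, so the first replicate of each arm was low and each library with both proteins was above its same-numbered BMP2 library. The difference was 1.89 (SE 1.95, adjusted p = 0.548), and it was called with the replicate block (adjusted p = 0.0164) and from replicates 2 and 3 only (1.79, adjusted p = 0.00567). Of 8 osteocyte genes limma called 0 over all libraries (median 0.35, with 2 at an unadjusted p under 0.05). From replicates 2 and 3 only 4 of the 8 rose, against 5.37% of all genes: Dmp1, Irx5, Ackr3 and Pdpn. Among 17 osteoblast transcription factors 0 rose and 0 fell over all libraries by limma (median 0.17; 5 at an unadjusted p under 0.05). Runx2 had 48, 40.1 and 42.6 FPKM with BMP2+RSPO2 and 33.9, 40.4 and 42.7 FPKM with BMP2 (0.16, adjusted p = 0.509). Sp7 (osterix) had 170, 310 and 305 FPKM with BMP2+RSPO2 and 192, 231 and 222 FPKM with BMP2 (0.23, adjusted p = 0.606). The arms of both regulators overlapped. In replicates 2 and 3 only, 3 of the 17 rose, with the homeobox gene Dlx3 among them (adjusted p = 0.00582), and 2 fell. In that fit 5.37% of all genes rose and 16.4% fell.

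In the Wnt pathway, Rspo2 itself was at the edge of detection, with 0, 0.23 and 0.04 FPKM with BMP2+RSPO2 and 1.65, 1.29 and 0.48 FPKM with BMP2. It fell (log2 difference −0.94, adjusted p = 0.0477), but the call held only without RSPO2 replicate 1 or BMP2 replicate 3 (otherwise up to 0.14), and ended under median-of-ratios scaling (0.0694) and from replicates 2 and 3 only (0.0771). The receptor gene Lgr4 had 6.29, 6.67 and 6.8 FPKM with BMP2+RSPO2 and 4.76, 5.91 and 5.89 FPKM with BMP2 (0.22, adjusted p = 0.284). The arms of Lgr4 did not overlap, yet the gap was small beside the spread of the fit. Of 9 tested Wnt ligand genes limma called 0 (median −0.31, with 2 at an unadjusted p under 0.05). From replicates 2 and 3 only Wnt11 rose, and Wnt6 and Wnt9a fell. Of 12 Wnt receptor genes only Lrp4, a low-density lipoprotein receptor relative that binds sclerostin, was called, as a rise, where 0.641% of all genes rose. From replicates 2 and 3 only 2 of the 12 rose and 5 fell. In that fit 5.37% of all genes rose and 16.4% fell. Lrp4 had 28.8, 28.8 and 27.4 FPKM with BMP2+RSPO2 and 20.2, 18.4 and 17.7 FPKM with BMP2 (0.57, adjusted p = 0.0354), a call lost without Control replicates 2 or 3, any BMP2 replicate or BMP2+RSPO2 replicates 2 or 3 (up to 0.122).

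Wnt target and feedback genes had a median of 0.32 over 16 tested members, and 0.47 under median-of-ratios scaling. As deposited, over all libraries, 1 of the 16 rose and 0 fell, where 0.641% of all genes rose and 3.74% fell. The rise was Notum, a secreted enzyme that strips the lipid from Wnt ligands. Notum had 7.86, 15.7 and 16.1 FPKM with BMP2+RSPO2 and 7.69, 3.68 and 3.78 FPKM with BMP2, with the first replicates almost level and replicates 2 and 3 far apart. The difference was 1.23 (SE 0.29, adjusted p = 0.0418), called only without RSPO2 replicate 1, BMP2 replicate 1 or BMP2+RSPO2 replicate 1 (otherwise up to 0.134), and 1.83 from replicates 2 and 3 only (adjusted p = 0.000288). Axin2, the scaffold that limits β-catenin, had 4.89, 4.37 and 4.34 FPKM with BMP2+RSPO2 and 3.73, 1.43 and 1.66 FPKM with BMP2 (0.82, adjusted p = 0.0792). Its arms did not overlap, and it was called with the replicate block (0.0155), under median-of-ratios scaling (0.0488) and from replicates 2 and 3 only (1.07, adjusted p = 0.0013). Lef1, a transcription factor of the pathway, had 3.34, 1.69 and 1.89 FPKM with BMP2+RSPO2 and 0.76, 1.32 and 1.32 FPKM with BMP2 (0.61, adjusted p = 0.0872). Replicates 2 and 3 only gave 6 rises and 0 falls among the 16, against 5.37% and 16.4% of all genes: Notum, Axin2, Apcdd1, Wif1, Fgf18 and Tcf7. Nkd2, a feedback inhibitor, stayed below 0.4 FPKM in all 6 libraries (0.19, adjusted p = 0.481). Of 6 secreted Wnt antagonists, Notum rose and Sfrp2 fell, where 0.641% of all genes rose and 3.74% fell. From replicates 2 and 3 only, 2 of the 6 rose and 1 fell, against 5.37% and 16.4% of all genes. Sfrp2, which binds Wnt ligands, had 17.3, 14.4 and 13.8 FPKM with BMP2+RSPO2 and 23.2, 26.7 and 25.6 FPKM with BMP2 (−0.70, adjusted p = 0.0251; lost without BMP2 or BMP2+RSPO2 replicates 2 or 3, up to 0.104, and under median-of-ratios scaling, 0.111).

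BMP-SMAD target genes showed no common direction. Of 18 tested members limma called 0, with 6 at an unadjusted p under 0.05 (median −0.09, and 0.02 under median-of-ratios scaling). Replicates 2 and 3 only gave 3 rises and 2 falls among the 18, against 5.37% and 16.4% of all genes. Id1, an early BMP target that inhibits helix-loop-helix factors, had 5.34, 3.2 and 3.56 FPKM with BMP2+RSPO2 and 2.44, 3.26 and 3.61 FPKM with BMP2; only the first replicates differed (0.28, adjusted p = 0.4). Smad6, an inhibitory SMAD, had 5.33, 8.01 and 7.68 FPKM with BMP2+RSPO2 and 8.82, 10.9 and 9.99 FPKM with BMP2. The arms did not overlap, and the difference of −0.46 (adjusted p = 0.117) was called with the replicate block (0.027) and from replicates 2 and 3 only (−0.37, adjusted p = 0.0163), but not under median-of-ratios scaling of all libraries (−0.29, adjusted p = 0.378) or of replicates 2 and 3 (−0.26, adjusted p = 0.0602). Of 17 ligand and receptor genes of the BMP and TGF-β family only Tgfbr3 (betaglycan, a coreceptor) was called, as a fall, where 3.74% of all genes fell. Tgfbr3 had 1.58, 1.86 and 1.49 FPKM with BMP2+RSPO2 and 2.62, 3.71 and 3.56 FPKM with BMP2 (−0.69, adjusted p = 0.0199). The adjusted p was 0.0574 under median-of-ratios scaling, and up to 0.0881 without BMP2 replicates 2 or 3. Replicates 2 and 3 only gave 3 rises and 3 falls among the 17, against 5.37% and 16.4% of all genes.

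Among 9 tested matrix metalloproteinase and inhibitor genes Mmp13 was the only one called. As a marker of the comparison, it was known to fall before the list was counted. Mmp2 (−0.14), Mmp14 (0.01) and Timp2 (−0.28) were not called. Timp4 was below the filter and not tested, at 0, 0.07 and 0.05 FPKM with BMP2+RSPO2 and 0.58, 4.67 and 4.14 FPKM with BMP2. The other untested members of the list were below 1 FPKM in every library. With replicates 2 and 3 only, 1 of the 9 rose and 2 fell. Of 17 ADAM and ADAMTS proteases, Adamts12 rose and Adamts1 fell, while 2 rose and 5 fell from replicates 2 and 3 only. Beside both lists, 5.37% of all genes rose and 16.4% fell in that fit, and 0.641% rose and 3.74% fell over all libraries. Adamts1, which cleaves versican and aggrecan, had 12.6, 7.26 and 7.22 FPKM with BMP2+RSPO2 and 16.7, 25.7 and 29 FPKM with BMP2 (−1.31, adjusted p = 0.0295; 0.0811 under median-of-ratios scaling, and up to 0.111 without RSPO2 replicate 2 or without replicates 2 or 3 of BMP2 or BMP2+RSPO2). Adamts12 had 25.6, 21.3 and 16.6 FPKM with BMP2+RSPO2 and 11.6, 9.81 and 10.5 FPKM with BMP2 (0.92, adjusted p = 0.0451), and it was called only without RSPO2 replicates 1 or 3 or BMP2+RSPO2 replicate 3 (otherwise up to 0.135) and not from replicates 2 and 3 only (0.0596). The 2 proteases thus moved in opposite directions.

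Of 8 prostaglandin genes, Ptgfr fell and Ptgs1 rose, where 3.74% of all genes fell and 0.641% rose. Ptgfr, as a marker of the comparison, was known to fall before the list was counted. From replicates 2 and 3 only 2 of the 8 rose and 3 fell, against 5.37% and 16.4% of all genes. Ptgs1, the constitutive cyclooxygenase, had 18.9, 27.6 and 30.1 FPKM with BMP2+RSPO2 and 17.5, 12 and 11.7 FPKM with BMP2 (log2 difference 0.84, adjusted p = 0.0411). The first replicates were nearly level; the call held only without the first replicate of RSPO2, BMP2 or BMP2+RSPO2 (otherwise up to 0.134), and replicates 2 and 3 only gave 1.21 (adjusted p = 0.000585). Ptgs2, the inducible cyclooxygenase, differed by 0.97 and was not called over all libraries, but rose from replicates 2 and 3 only (adjusted p = 0.0124). Of 21 exchange factors for small GTPases, Prex1 and Dock5 rose and 0 fell, where 0.641% of all genes rose, and the median was −0.001. Prex1 is 1 of the 4 markers and was known to rise before the list was counted, so this count is not independent of that choice. From replicates 2 and 3 only, 3 of the 21 rose and 3 fell (median −0.13), against 5.37% and 16.4% of all genes. Dock5, a Rac activator, had 7.11, 6.92 and 6.14 FPKM with BMP2+RSPO2 and 4.44, 3.56 and 3.59 FPKM with BMP2 (0.67, adjusted p = 0.023; lost without BMP2 replicates 2 or 3 or BMP2+RSPO2 replicate 2, up to 0.0967).

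The CCN family of matricellular proteins split. Wisp2 (CCN5) had 1.37, 2.29 and 1.91 FPKM with BMP2+RSPO2 and 11.3, 12.4 and 11.8 FPKM with BMP2, and fell by 2.18 on the log2 scale (SE 0.33, adjusted p = 0.0102; −2.08 from replicates 2 and 3 only; up to 0.0518 without BMP2 replicates 2 or 3). Wisp1 (CCN4), a Wnt-induced protein of osteoblasts, had 48.1, 74.5 and 69.7 FPKM with BMP2+RSPO2 and 35.6, 38.4 and 37.9 FPKM with BMP2, and rose by 0.74 (SE 0.16, adjusted p = 0.0354). The call of Wisp1 held only without Control replicate 1, RSPO2 replicate 1 or BMP2+RSPO2 replicate 1 (otherwise up to 0.108). Of the 12 members of the CCN and YAP target list the LIM protein gene Ajuba also fell (−0.39, adjusted p = 0.0423), only without RSPO2 replicate 1 or BMP2+RSPO2 replicate 1 when a library was left out (otherwise up to 0.122), and not under median-of-ratios scaling (0.195). Over all libraries 1 of the 12 rose and 2 fell, against 0.641% and 3.74% of all genes. In replicates 2 and 3 only, 3 of the 12 rose and 2 fell, against 5.37% and 16.4% of all genes. Of 15 genes of the IGF axis Igfbp2, an IGF-binding protein, was called, as a fall, where 3.74% of all genes fell. Igfbp2 had 5.97, 5.56 and 6.21 FPKM with BMP2+RSPO2 and 9.16, 14.7 and 13 FPKM with BMP2 (−0.92, adjusted p = 0.0143; −1.11 from replicates 2 and 3 only; 0.0585 under median-of-ratios scaling and up to 0.0722 without BMP2 replicates 2 or 3). With replicates 2 and 3 only, 5 of the 15 IGF genes fell and 0 rose, against 16.4% and 5.37% of all genes.

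Immune and metabolic lists held scattered falls. Of 11 interferon response genes all 11 had differences below 0, as did 8225 of all 11548, and 3 fell, where 3.74% of all genes did (median −0.45, and −0.27 under median-of-ratios scaling, where 2 fell). From replicates 2 and 3 only, 1 rose and 5 fell, against 5.37% and 16.4% of all genes. Irf1, an interferon-regulated transcription factor, had 3.59, 4.66 and 4.3 FPKM with BMP2+RSPO2 and 12, 8.19 and 9.65 FPKM with BMP2 (−1.07, adjusted p = 0.0143; 0.0623 without BMP2 replicate 3). The other falls were Gbp2 (−0.96, adjusted p = 0.03) and Ifi27 (−0.90, adjusted p = 0.044). Gbp2 was lost without any BMP2 replicate or BMP2+RSPO2 replicate 2 (up to 0.107), and Ifi27 held only without RSPO2 replicate 1 or BMP2+RSPO2 replicates 1 or 3 (otherwise up to 0.125) and was lost under median-of-ratios scaling (0.101). Of 10 inflammation genes the chemokine Cxcl12 fell, with 3, 1.66 and 2.52 FPKM with BMP2+RSPO2 and 5.03, 13.1 and 7.99 FPKM with BMP2 (−1.45, adjusted p = 0.0312, and −1.88 from replicates 2 and 3 only). Over all libraries 1 of the 10 fell and 0 rose, against 3.74% and 0.641% of all genes. From replicates 2 and 3 only, 4 of the 10 fell and 1 rose, against 16.4% and 5.37% of all genes. The call of Cxcl12 ended under median-of-ratios scaling (0.0689), without Control replicates 2 or 3, RSPO2 replicate 2, and without replicates 2 or 3 of BMP2 or BMP2+RSPO2 (up to 0.104).

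Of 25 cholesterol and fatty acid synthesis genes 4 fell, where 3.74% of all genes did, and 0 rose (median −0.41, and −0.22 under median-of-ratios scaling, where 1 fell and 1 rose). The 4 encode enzymes of the mevalonate and squalene route: Mvk (−0.70, adjusted p = 0.0152), Pmvk (−0.65, adjusted p = 0.0392), Fdps (−0.60) and Fdft1 (−0.59, adjusted p = 0.0427). Mvk had 6.97, 7.47 and 6.52 FPKM with BMP2+RSPO2 and 13, 10.3 and 12.8 FPKM with BMP2, without overlap, and lost its call without BMP2 replicate 3 (0.0758). In replicates 2 and 3 only, 17 of the 25 fell and 2 rose, against 16.4% and 5.37% of all genes. The calls of Pmvk, Fdps and Fdft1 rested on most libraries: 1 library left out ended them in 8, 10 and 10 of 12 fits (up to 0.112, 0.148 and 0.123; the libraries were Control, RSPO2, BMP2 and BMP2+RSPO2 replicate 2, Control, BMP2 and BMP2+RSPO2 replicate 3 and BMP2 replicate 1 for all 3, Control replicate 1 for Fdps and Fdft1, RSPO2 replicate 3 for Fdft1 and BMP2+RSPO2 replicate 1 for Fdps), with the fits without RSPO2 replicate 1 the only ones that left all 3 called.

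Lists of growth and biosynthesis genes had medians below 0, as did the median of all genes. All 37 tested cell cycle genes had differences below 0, as did 8225 of the 11548 genes tested (median −0.95, and −0.76 under median-of-ratios scaling), with 0 called by limma over all libraries and 1 at an unadjusted p under 0.05, but 30 falls with the replicate block, where 1505 of all genes fell, and 35 from replicates 2 and 3 only, where 16.4% did. Their median level was 18.5, 7.58 and 7.42 FPKM in the BMP2+RSPO2 libraries and 32.3, 16.3 and 15.3 FPKM in the BMP2 libraries, so replicate 1 was the highest in both arms. All 31 cytosolic ribosomal protein genes were below 0 (median −0.68, and −0.49 under median-of-ratios scaling), and 1 fell, Rpsa (−0.70, adjusted p = 0.0383), only without RSPO2 replicate 1 or BMP2+RSPO2 replicates 1 or 3 when a library was left out (otherwise up to 0.12). The call of Rpsa also ended under median-of-ratios and quantile scaling (limma adjusted p = 0.109 and 0.213). Among the 31 were 26 falls from replicates 2 and 3 only (16.4% of all genes), and median-of-ratios scaling of those libraries gave 12 (9.85%). The median ribosomal level was 319, 579 and 591 FPKM in the BMP2+RSPO2 libraries and 793, 831 and 846 FPKM in the BMP2 libraries. Every BMP2+RSPO2 library was thus below every BMP2 library, and replicate 1 was the lowest. All 33 respiratory chain genes were below 0 as well (median −0.53, and −0.35 under median-of-ratios scaling), and 3 fell, Atp5c1 (−0.62, adjusted p = 0.0335), Ndufv2 (−0.64, adjusted p = 0.0433) and Uqcrh (−0.60, adjusted p = 0.0433). In the fit over all libraries 3.74% of all genes fell, beside 1 of the 31 ribosomal and 3 of the 33 respiratory chain genes. Among the 33 were 9 falls from replicates 2 and 3 only (16.4% of all genes), and median-of-ratios scaling of those libraries gave 2 (9.85%). The calls of Atp5c1, Ndufv2 and Uqcrh ended under median-of-ratios scaling (0.0615, 0.0918 and 0.182), and without replicate 2 of any arm, replicate 3 of Control or BMP2, or BMP2 replicate 1 (up to 0.106, 0.125 and 0.141). Ndufv2 and Uqcrh also lost them without Control replicate 1, RSPO2 replicate 3 or BMP2+RSPO2 replicate 1, and Uqcrh without BMP2+RSPO2 replicate 3. In contrast, the list of ATF4 and secretory stress genes had a median of 0.26 over 29 members, with 0 called by limma over all libraries and 11 at an unadjusted p under 0.05, and 13 rises and 5 falls from replicates 2 and 3 only, against 5.37% and 16.4% of all genes. Its rises there included Asns (asparagine synthetase, adjusted p = 0.0186), Chac1 (adjusted p = 0.0191) and Trib3 (adjusted p = 0.0491), all targets of ATF4.

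How far the effect of RSPO2 depended on BMP2 was tested with the interaction, which is the log2 difference with BMP2 (BMP2+RSPO2 minus BMP2) minus that without it (RSPO2 minus Control). Limma called 34 genes in the interaction (0.294%), 1 above 0 (0.00866%) and 33 below (0.286%), with 1504 at an unadjusted p under 0.05. The 1 above 0 was Prex1, at 2.57 (SE 0.30, adjusted p = 0.0165). Contractile and matrix genes made up several of those below 0: Myl9 (−1.49, adjusted p = 0.0165), Acta2 (−1.22, adjusted p = 0.0308), Col3a1 (−1.61, adjusted p = 0.0384) and Fbln5 (−1.51, adjusted p = 0.0308). Without BMP2, Acta2 and Col3a1 stood nearly level in both arms: Acta2 had 1180 ± 163 FPKM with RSPO2 and 1190 ± 89.2 FPKM in Control, and Col3a1 had 752 ± 25.6 FPKM with RSPO2 and 758 ± 17.8 FPKM in Control (SD, n = 3 each). Fbln5 stood higher with RSPO2 there, at 21.7, 19.5 and 17.2 FPKM with RSPO2 and 15.7, 13.2 and 11.7 FPKM in Control, without overlap (log2 difference 0.49, adjusted p = 0.811). Wisp2 and Sfrp2 had differences of opposite sign, −2.18 with BMP2 and 0.98 without it for Wisp2 (interaction −3.16, adjusted p = 0.0308), and −0.70 and 0.72 for Sfrp2 (interaction −1.42, adjusted p = 0.0242). The differences without BMP2 were themselves not called for these genes (adjusted p = 0.911 and 0.159). The number of interaction calls depended on single libraries. Limma made 0 calls without Control replicates 2 or 3 or BMP2 replicates 2 or 3 (1021 to 1216 at an unadjusted p under 0.05). It made 1 without RSPO2 replicate 2, 5 without BMP2+RSPO2 replicate 3, and 10 to 16 without RSPO2 replicates 1 or 3 or BMP2+RSPO2 replicate 2. The count was 49 without Control replicate 1, 41 without BMP2 replicate 1 and 187 without BMP2+RSPO2 replicate 1. Interactions of single genes were not followed through these fits. Under median-of-ratios scaling 15 genes were called, 3 above 0 and 12 below. With replicates 2 and 3 only 291 were above 0 and 818 below, and 455 and 479 with median-of-ratios scaling of those libraries.

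RSPO2 against Control, which shares no library with the comparison above, gave 9 called genes (0.0779%), 7 higher (0.0606%) and 2 lower (0.0173%). Limma made 0 calls without Control replicate 2 or RSPO2 replicate 3 (328 and 365 at an unadjusted p under 0.05), at most 4 without any other single library except BMP2 replicate 1 (8), and 21 without BMP2+RSPO2 replicate 1. Called in both were 3 genes, Ptgfr and Otor, which were lower in both, and Igfbp2, which was lower with BMP2 (−0.92) and higher without it (1.10, adjusted p = 0.0383; interaction −2.02, adjusted p = 0.0165). Otor had 0.347 ± 0.0611 FPKM with RSPO2 and 1.81 ± 0.155 FPKM in Control (SD, n = 3 each; log2 difference −1.06, limma adjusted p = 0.0338). Nkd2 rose without BMP2, at 5.92, 6.52 and 6.58 FPKM with RSPO2 and 1.8, 0.98 and 1.01 FPKM in Control, while it stayed below 0.4 FPKM in all libraries with BMP2 (interaction −1.53, adjusted p = 0.0308). The 74 rises of the comparison with BMP2 had a median of 0.74 there and of 0.07 without BMP2, and 44 of them were above 0 without it, as were 5966 of the 11548 genes tested. For the 432 falls the medians were −0.73 with BMP2 and −0.05 without, and 267 were below 0 without BMP2, as were 5582 of all genes. Both sets were selected by their difference with BMP2, which fixes the size of that median. The gap between the medians with and without BMP2 therefore does not measure dependence on BMP2. Across all genes, which are not independent replicates, Pearson's r between the differences with and without BMP2 was 0.168 and Spearman's coefficient 0.196.

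**Figure D4:**
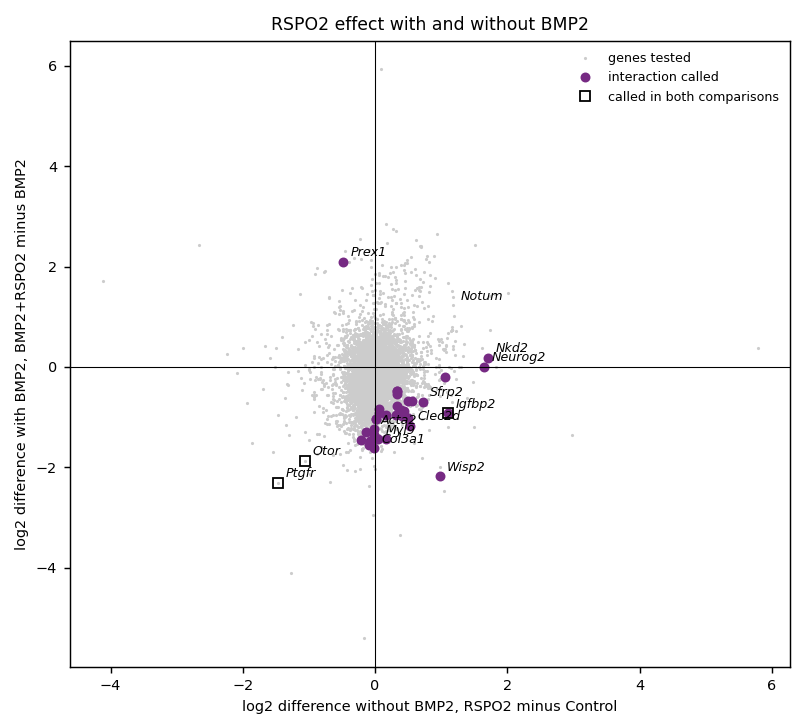
Each point is 1 of the genes tested; the y axis is the log2 difference BMP2+RSPO2 minus BMP2 and the x axis the log2 difference RSPO2 minus Control. Purple points are the 34 genes called in the interaction and squares mark the 3 genes called in both comparisons; Prex1 is the only purple point above 0 on the interaction, and most others lie low on the y axis and near or right of 0 on the x axis.

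Shares of promoter windows with the other words were counted in the same way. The TCF/LEF search covered the word CTTTGAA on either strand. It also covered the variants that replace the last letter, as CTTTGAT does, or the letter before it, as in the word CTTTGTA, or both of these letters, which gives the variant CTTTGTT. At least 1 of the 4 was found in 14.7% of the windows of rises and 12.4% of those of falls, against 10.9% of the windows of tested genes and 16.9% of all RefSeq windows. The RUNX word TGTGGT was found in 8.82% of rises and 11% of falls, against 12.1% and 16.8%. The AP-1 word TGANTCA was found in 11.8% of rises (8 of 68 windows) and 6.06% of falls, against 4.74% and 7.81%, and the BMP-SMAD word GGCGCC in 23.5% of rises and 22.9% of falls, against 22.3% and 11.9%. RefSeq windows matched 47 of the 74 rises and 302 of the 432 falls by symbol. These shares describe letters within 250 bases before and 50 after the start and say nothing about the binding of a factor.

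**Figure D5:**
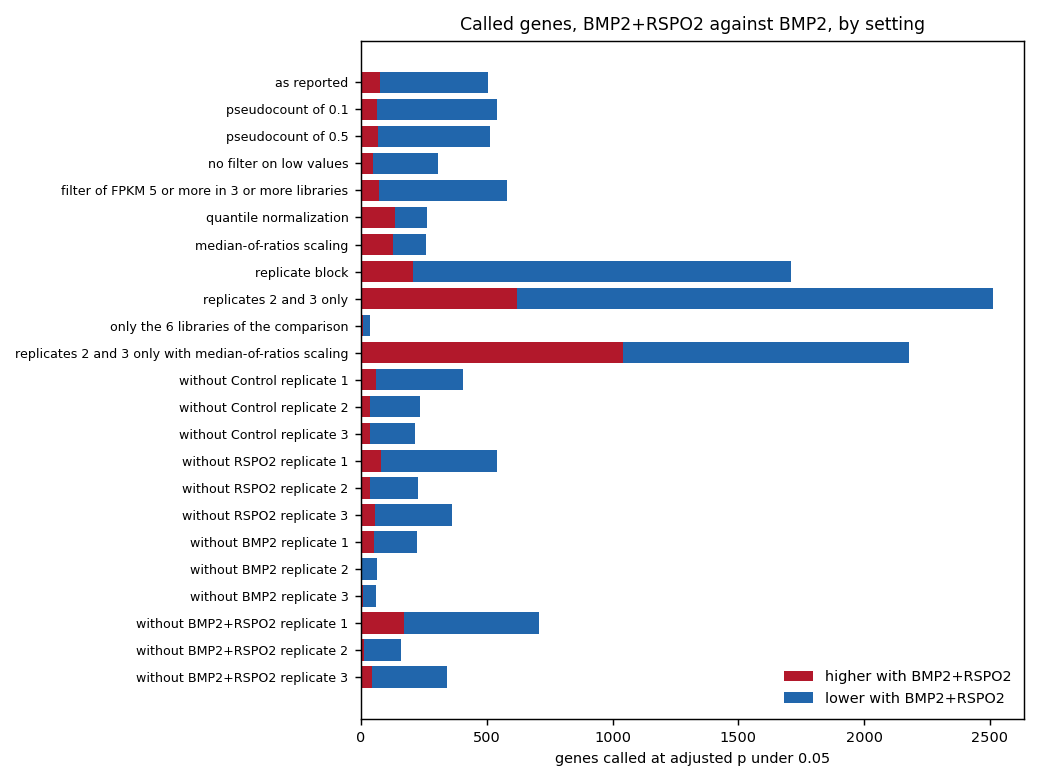
Number of genes called at an adjusted p under 0.05 in BMP2+RSPO2 against BMP2 under each setting, split into genes higher (red) and lower (blue) with BMP2+RSPO2. As reported there are 74 higher and 432 lower; among the settings drawn, which leave out library weights, the count runs from 35 with only the 6 libraries of the comparison to 2512 with replicates 2 and 3 only, and falls outnumber rises in all but the median-of-ratios and quantile settings over all libraries.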

How the data were processed

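RNA of MC3T3-E1 cultures (integrity number at least 7 per the labels' protocols) was sequenced from stranded poly(A) libraries. Per the submitters' processing notes, cutadapt 1.10, FastQC 0.10.1, HISAT2 2.0, StringTie 1.3.4 and edgeR were used, with no role or order given for edgeR here, and with the builds GRCm38 and mm10. The gene identifiers are those of the C57BL/6NJ annotation, so coordinates were taken from RefSeq on GRCm38.p6 and used only for promoter windows and gene order. The authors deposited 1 FPKM value per gene and library for 39032 genes. The deposited p-values and q-values (2 columns) belong to a comparison that is not named and were not used. Depth is unknown: in 66 pairs of libraries no steps of whole reads were seen, so no interval is given for a value of 0. No libraries held identical values. Whether the counting used strand is not given in the sources used here.

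FPKM were transformed as log2(FPKM + 1), which understates the change of low genes. Genes at 1 FPKM or more in 3 or more libraries (11548, of which 1083 without a symbol) were fitted in 1 model of the 4 arms for the 12 libraries (limma version 3.58.1, R version 4.3.3; empirical Bayes with a trend on mean expression; 8 residual degrees of freedom and 2.5 from the prior). Contrasts were BMP2+RSPO2 minus BMP2, RSPO2 minus Control and their difference. Tests were two-sided, and all adjusted p-values are limma's after Benjamini-Hochberg adjustment over all genes tested, within a contrast. P-values measure the spread between these cultures. The procedure was tested on simulated data.

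Alternatives were pseudocounts of 0.1 and 0.5, no filter, a filter at 5 FPKM, quantile normalization, median-of-ratios scaling, library weights, a block on the replicate number, replicates 2 and 3 only, only the 6 libraries compared, and each library left out. Replicates 2 and 3 with median-of-ratios scaling was chosen after seeing the data. Same-numbered libraries deviated from their arm means together (r = 0.36, 0.28 and 0.16 between BMP2+RSPO2 and BMP2, and 0.63, 0.41 and 0.31 between RSPO2 and Control). Same-numbered cultures may therefore be paired, which was read from these values. The main fit has no block for such a pairing, and the block on the replicate number is among the alternatives. Replicates 2 and 3 also deviated together across numbers (r = 0.24 and 0.17 between BMP2+RSPO2 and BMP2, and 0.18 and 0.22 between RSPO2 and Control), so the numbers mainly set replicate 1 apart. The labels give 1 batch entry, the same for all libraries.

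The members and the 35 gene lists were chosen with earlier results of these data known. Genes were named by rule: 4 markers, a panel of 12, the 12 largest called rises and the 12 largest called falls with a symbol and no overlap (predicted and clone-named genes aside), up to 3 called members per list, the 5 largest called interactions, and list members as examples.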

Additional observations from a re-analysis of the deposited data

Results flagged for a closer look

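The interaction test called 34 genes for a difference in the RSPO2 effect with and without BMP2. Without Control replicates 2 or 3 or BMP2 replicates 2 or 3 it called 0, and under median-of-ratios scaling 15. As deposited, the median difference of all genes was −0.19 with BMP2 and 0.006 without it. The part of this shift in the interactions below was not tested, and their values are as deposited. Among the genes named here, the interaction was above 0 for Prex1 (2.57). It was below 0 for Wisp2 (−3.16), Igfbp2 (−2.02), Clec2d (−1.71), Neurog2 (−1.65), Col3a1 (−1.61), Nkd2 (−1.53), Fbln5 (−1.51), Myl9 (−1.49), Sfrp2 (−1.42), Acta2 (−1.22) and the lipid droplet gene Plin2 (−0.814). Ptn (−1.46) and Lmcd1 (−1.06), described elsewhere in the text, were called below 0 as well. Clec2d, a lectin-like ligand of natural killer cell receptors, had 0, 0.39 and 0.33 FPKM with BMP2+RSPO2 and 1.55, 1.49 and 2.35 FPKM with BMP2, and 6.71 ± 0.369 FPKM with RSPO2 and 4.33 ± 0.269 FPKM in Control (SD, n = 3 each). Neurog2, a neural transcription factor gene, was listed at 0 in all 6 libraries with BMP2, and had 2.41, 2.83 and 4.04 FPKM with RSPO2 and 0.61, 0.09 and 0.21 FPKM in Control, so its interaction rests on the libraries without BMP2. Plin2 had 8.45 ± 0.588 FPKM with BMP2+RSPO2 and 12.1 ± 0.162 FPKM with BMP2, and 19.8 ± 1.89 FPKM with RSPO2 and 15.4 ± 0.388 FPKM in Control (SD, n = 3 each).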

How the results depend on the processing

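The count for BMP2+RSPO2 against BMP2 (506) was 539 and 513 with pseudocounts of 0.1 and 0.5 and 580 with the filter at 5 FPKM. It was 306 with no filter, 261 with quantile normalization, 258 with median-of-ratios scaling, 4491 with library weights, 1710 with the replicate block, 2512 from replicates 2 and 3 only, 2179 with median-of-ratios scaling of those, and 35 from only the 6 libraries; with 1 library left out it ran from 60 to 709. RSPO2 against Control (9) gave 0 and 4 with pseudocounts of 0.1 and 0.5, 0 with the filter at 5 FPKM, 5 with quantile normalization, 329 with library weights, 26 with the replicate block, 195 and 192 from replicates 2 and 3 without and with median-of-ratios scaling, and 0 to 21 with 1 library left out. The interaction (34) gave 12 with quantile normalization, 15 with median-of-ratios scaling, 2225 with library weights, 91 with the replicate block, 1109 and 934 from replicates 2 and 3 without and with median-of-ratios scaling, and 0 to 187 with 1 library left out. Of the 69 named genes, Id1 (−0.0328 and −0.0181) and Runx2 (−0.0174 and −0.00655) changed sign with library weights and from replicates 2 and 3 only, and neither was called over all libraries. The replicate block added calls of Axin2, Dmp1 and Smad6 and changed no other call of a named gene. The causes were not tested. Depth is unknown, which limits statements on genes listed at 0.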

Other observations

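Aspn and Ogn lie in a run of 4 small leucine-rich repeat genes on mouse chromosome 13, in the order Ecm2, Aspn, Omd and Ogn in the RefSeq table of GRCm38.p6, a look at neighbours that was made after their values were seen. Ecm2 had 0.4, 0.72 and 0.75 FPKM with BMP2+RSPO2 and 2.06, 2.33 and 2.91 FPKM with BMP2 (log2 difference −1.08, limma adjusted p = 0.00565; no single library ended the call). Omd (osteomodulin) had 144, 72.4 and 63.9 FPKM with BMP2+RSPO2 and 205, 121 and 132 FPKM with BMP2; the arms overlap because replicate 1 of each is the highest (−0.76, adjusted p = 0.138, and −0.89, adjusted p = 0.00752, from replicates 2 and 3 only). The genes on either side were not called over all libraries: Nol8 differed by −0.21 (adjusted p = 0.545), Iars by 0.46 (adjusted p = 0.129; 0.51, adjusted p = 0.0242, from replicates 2 and 3 only) and Ippk by −0.26 (adjusted p = 0.519). Cenpp, a centromere protein gene whose span covers the run on the opposite strand, differed by −1.22 (adjusted p = 0.341), and by −1.39 (adjusted p = 0.0013) from replicates 2 and 3 only. Since it is not known here whether counting used strand, reads of Cenpp and of the run cannot be told apart with certainty.

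Some other secreted proteins fell, and no single library ended their calls; these genes were chosen after their values were seen. Fst (follistatin, an antagonist of activin) had 26.7, 22.2 and 20.9 FPKM with BMP2+RSPO2 and 53.4, 72.9 and 69.9 FPKM with BMP2 (−1.44, adjusted p = 0.00575). Ptn (pleiotrophin, a heparin-binding growth factor) had 27.2, 30.3 and 31.2 FPKM with BMP2+RSPO2 and 77, 94.4 and 96.5 FPKM with BMP2 (−1.56, adjusted p = 0.00237). Neither gene overlapped between the arms. The collagen gene Col8a2 had 38.2, 45.5 and 38.1 FPKM with BMP2+RSPO2 and 76.3, 105 and 101 FPKM with BMP2 (−1.18, adjusted p = 0.00178). Among the rises, Creb3l1, a membrane-bound transcription factor of collagen secretion in osteoblasts, had 442, 454 and 474 FPKM with BMP2+RSPO2 and 242, 230 and 226 FPKM with BMP2 (0.97, adjusted p = 0.0298). Its call ended without RSPO2 replicate 2, any BMP2 replicate or BMP2+RSPO2 replicates 2 or 3 (up to 0.106).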
